A study of Rattus norvegicus with 8 samples.

Results

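The comparison was of the vinclozolin lineage with the control lineage over both prostate preparations of the series at once. It used 8 of the 8 arrays, 4 whose titles place them in the F3 vinclozolin lineage and 4 whose titles place them in the F3 control lineage. The preparation entered as an additive term, so a single lineage effect was fitted per probe set, and genes whose effect had the same sign and a like size in both preparations were kept apart from those carried by 1 of them.

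All animals were Sprague-Dawley rats of generation F3, with no transgene or deleted gene in the labels. A pregnant female of generation F0 had been injected intraperitoneally from gestation day 8 to day 14, and the label F3 marks the third generation from there. The 4 groups of 2 arrays were whole ventral prostate of control males at 180 days, whole ventral prostate of vinclozolin males at 180 days, prostate epithelium of control males at 45 days, and prostate epithelium of vinclozolin males at 45 days. Each epithelium sample was a pool of 11 animals, and each whole prostate sample a pool of several. The injection described for all 8 samples, those titled vinclozolin included, is of the vehicle, DMSO, so the lineage of each array rests on its title. Age and preparation change together, so that the effects of each cannot be told apart. The labels do not say that the 2 samples of a group came from different animals, and p-values therefore measure the spread between these samples, which may be technical.

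Vinclozolin is a dicarboximide fungicide whose metabolites bind the androgen receptor and block it. The ventral prostate of the rat is a lobe of ducts lined by luminal cells that secrete into the lumen, over a thinner layer of basal cells and a sheath of smooth muscle and fibroblasts, and its growth and secretion depend on androgens. In a transgenerational design only the F0 female, her embryos and their germ cells meet the compound, and the F3 generation is the earliest with no direct exposure.

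Every array held intensities of 31099 probe sets. The arrays shared a trimmed mean of about 125 intensity units, and 28.3% to 36.7% of the values on an array lay under 16 units. The luminal marker Krt8 lay between 1695.5 and 2916.5 units over the 8 arrays and the secretory Pbsn between 6515.9 and 8027.8. Against what its name would lead one to look for, the epithelium preparation read higher than whole prostate for most smooth muscle and fibroblast markers. Acta2, a smooth muscle actin, lay between 1743.7 and 2117.1 units there and between 118.9 and 183.1 in whole prostate. The collagen gene Col1a1 lay between 1931.7 and 2048.7 against 194.2 to 254.9, while the fibroblast gene Lum overlapped between the preparations. Summed over the list, the gap was smaller. Smooth muscle markers summed to 15890 and 16240 units in whole prostate controls against 35810 and 37800 in epithelium controls, and fibroblast markers to 8315 and 8359 against 14420 and 14970. Basal epithelial markers also read higher in epithelium, with sums of 1657 and 1675 against 5932 and 5922 in the controls. The preparations are therefore called by their labels here, with no claim on their purity. In bulk RNA, fewer cells of a type and less RNA per cell cannot be told apart. The control probe set for 5S ribosomal RNA read 462.9 and 478.6 units in whole prostate controls against 189.2 and 184 in the vinclozolin arrays, and 548.8 and 542.7 against 459 and 479.3 in epithelium. The ratio of the 3′ to the 5′ control probe set of beta-actin also differed. It was 3.74 and 3.98 in whole prostate controls, 3.37 and 3.14 in vinclozolin whole prostate, and between 2.26 and 2.57 in epithelium. For Gapdh the ratio was 1.47 and 1.39 against 1.40 and 1.35 in whole prostate, and between 1.08 and 1.22 in epithelium. The part of these control values in the results was not tested.

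Of the 21729 probe sets that passed the filter on low values, 17 (0.0782%) differed between the lineages over both preparations at a Benjamini-Hochberg adjusted p under 0.05 in limma. Of these, 6 (0.0276%) were higher in the vinclozolin lineage and 11 (0.0506%) lower. All 17 had a smaller effect of at least 0.5 times the larger one in the other preparation, with the same sign, which is what is meant by like size. Among all probe sets tested, 54.2% had the same sign in both preparations and 21.6% were also of like size. An additive fit counts any difference between the preparations as spread, so a probe set with unequal effects is hard to call in it. For the 17, the vinclozolin and control arrays did not overlap within either preparation, a pattern found in 13.6% of all probe sets tested. The effects ranged in size from 0.85 to 2.30 on the log2 scale, and the smaller effect was between 0.574 times (Setd1b) and 0.994 times (Rps4x-ps1) the larger. Effects within a preparation came from a fit of all 8 arrays that share 1 estimate of the spread. By these, 16 of the 17 were called in whole prostate, where 379 probe sets (1.74%) were called. In epithelium 1 of the 17 was called, where 2 (0.0092%) were. From the 4 arrays of a preparation alone, limma called 65 in whole prostate and 0 in epithelium. The difference between the 2 preparations' effects was called for 63 probe sets (0.29%) and for 0 of the 17 by limma, with the lowest adjusted p among them 0.184 for Setd1b and 2 of the 17 at an unadjusted p under 0.05. Without adjustment, p was under 0.05 in the additive fit for 1464 higher and 1631 lower probe sets. The list of 17 was not stable against the loss of an array: with any 1 of the 8 left out, 2 to 4 probe sets were called, and Slc5a11 and the unnamed probe set 1381127_at were the ones called in all 8 of those fits. With the trended and robust prior the count was 416, and with replicate number as a block it was 0.

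**Figure D1:**
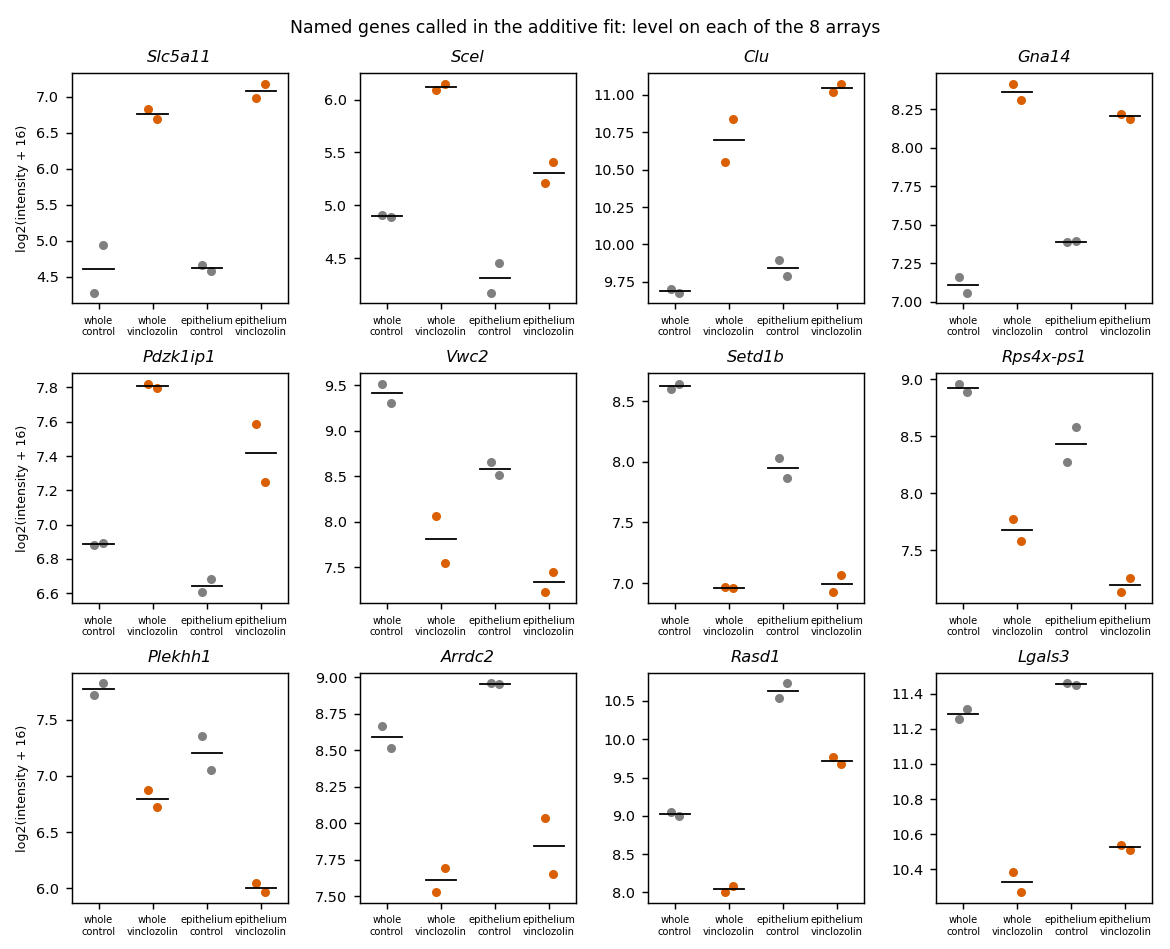
Level of the called genes with 1 symbol on each of the 8 arrays, as log2(intensity + 16) after quantile normalisation, with controls and vinclozolin arrays of each preparation side by side. Every point is 1 array and each bar the mean of 2. Vinclozolin arrays lie above the controls in both preparations for the 5 genes that rose and below them for the 7 that fell.

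Of the 17 probe sets, 12 carried 1 gene symbol, 5 of them higher and 7 lower. Values below are deposited intensities, in the order of replicates 1 and 2, and effects are differences in log2(intensity + 16) after quantile normalisation, vinclozolin minus control, with the standard error from limma. A difference of 1 on this scale is a factor of 2, and the added 16 makes the fold of dim genes smaller than that of their intensities.

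Among genes of transport, Slc5a11, a sodium-coupled carrier of myo-inositol, read 2.7 and 12.3 units in whole prostate controls, 93.6 and 82 in whole prostate of the vinclozolin lineage, 10.7 and 8.9 in epithelium controls and 113.8 and 129.6 in vinclozolin epithelium. All 4 control arrays lay below the added 16 units and all 4 vinclozolin arrays far above it. The effect was 2.30 ± 0.16 (adjusted p = 0.0051), a 4.92-fold difference on the log2(intensity + 16) scale, with 2.15 in whole prostate and 2.45 in epithelium. With 1 unit added in place of 16, the effect of Slc5a11 was 3.57 and its adjusted p 0.0817. Pdzk1ip1, a small membrane protein that binds the scaffold Pdzk1, rose as well, and less: it read 99.8 and 101.8 against 211.8 and 204.5 units in whole prostate, and 84.1 and 90.3 against 175.5 and 136.7 in epithelium. Its effect was 0.85 ± 0.10 (adjusted p = 0.0481).

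Clu encodes clusterin, a secreted chaperone known in the rat prostate for the rise of its RNA after castration. In whole prostate, its probe set 1367784_a_at read 847.1 and 828.5 units in controls and 1504.9 and 1870.6 in the vinclozolin lineage, and in epithelium 917.4 and 847.5 against 2104.9 and 2195.3. The levels of the 4 controls lay close together across preparations, and each vinclozolin array was well above them. The effect was 1.10 ± 0.10 (adjusted p = 0.0187), with 1.00 in whole prostate and 1.21 in epithelium. A second Clu probe set, 1388246_at, gave 0.34 ± 0.19 (adjusted p = 0.461) and did not pass, with 0.14 in whole prostate and 0.53 in epithelium, so the probe sets of Clu disagree in size.

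Gna14, the alpha subunit of a G protein of the Gq family, read 127 and 117.3 units in whole prostate controls and 332.9 and 304 in the vinclozolin lineage, and 149.7 and 152 against 275.7 and 267.9 in epithelium. Its effect was 1.03 ± 0.11 (adjusted p = 0.0284), and the second probe set, 1393825_at, gave 0.79 ± 0.15 (adjusted p = 0.132) with both preparations positive. Scel encodes sciellin, a precursor of the cornified envelope of stratified epithelia. It was dim on the control arrays, at 11.3 and 11.4 units in whole prostate and 2.4 and 6.6 in epithelium, against 47.5 and 50.4 and against 25 and 29.7 in the vinclozolin lineage. The effect of Scel was 1.11 ± 0.11 (adjusted p = 0.0187), and 2.16 (adjusted p = 0.0956) with 1 unit added in place of 16.

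The genes that fell began with a galectin. Lgals3, a lectin that binds beta-galactosides and is made by epithelial cells and macrophages, read 2297.1 and 2414.4 units in whole prostate controls and 1339.3 and 1241.5 in the vinclozolin lineage, and 2838.5 and 2893.8 against 1480.7 and 1455.9 in epithelium. No vinclozolin array overlapped the controls, and the fall was nearly equal in the preparations, -0.95 and -0.93. The additive effect was -0.94 ± 0.08 (adjusted p = 0.0168). The macrophage markers, summed over 18 genes, lay between 8309 and 8977 units in whole prostate controls and between 6818 and 7716 in the vinclozolin lineage, and between 9200 and 10600 against 7585 to 7797 in epithelium. A sum weighs the brightest genes most, here Lyz2, which read 6134.1 and 5666.5 units in whole prostate controls. The median effect over the same 18 genes was 0.21, with 0.61 in whole prostate and -0.15 in epithelium. Their part in the Lgals3 result was not tested.

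Signalling genes were next among those that fell. Rasd1, a Ras-like protein first found through its induction by dexamethasone, was brighter in epithelium than in whole prostate, and fell in both: 540.6 and 516.1 units against 242.4 and 256.9 in whole prostate, and 1491.3 and 1724.1 against 819.4 and 770.6 in epithelium. Its effect was -0.95 ± 0.09 (adjusted p = 0.0187). Arrdc2, an arrestin-domain protein of the alpha-arrestin family, read 410.2 and 364.8 against 168 and 190.2 units in whole prostate, and 467.2 and 463.1 against 239.7 and 183.4 in epithelium, an effect of -1.05 ± 0.11 (adjusted p = 0.0284). Vwc2, a secreted antagonist of bone morphogenetic proteins, had the largest fall among the 7 named genes that were called lower: 740.4 and 637.4 against 256.3 and 169.3 units in whole prostate, and 375.2 and 339 against 134.7 and 159.6 in epithelium. Its effect was -1.42 ± 0.15 (adjusted p = 0.0242), stronger in whole prostate (-1.60) than in epithelium (-1.25) with no call of that difference (adjusted p = 0.638).

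Setd1b, a histone lysine methyltransferase that acts at promoters, read 390.1 and 403.6 units in whole prostate controls and 106.3 and 103.1 in the vinclozolin lineage, and 241.4 and 214.3 against 109.7 and 120.3 in epithelium. Controls stood apart between the preparations, while the 4 vinclozolin arrays lay between 103.1 and 120.3. Setd1b had the least equal effects of the 17, -1.66 and -0.95, for an additive effect of -1.31 ± 0.15 (adjusted p = 0.0400). Plekhh1, a protein with pleckstrin homology domains, read 199 and 216.3 against 97.7 and 84.7 units in whole prostate, and 145.9 and 118.4 against 55.8 and 51.7 in epithelium. Its effect was -1.08 ± 0.11 (adjusted p = 0.0207), while a second probe set, 1384277_at, gave -0.14 ± 0.11 with opposite signs in the preparations. Rps4x-ps1 is annotated as a pseudogene of a ribosomal protein, and its probe set may take signal from near-identical copies, so its identity is uncertain. It read 507 and 476 against 203.9 and 173.7 units in whole prostate and 286.3 and 356.5 against 126.1 and 137.7 in epithelium, with an effect of -1.24 ± 0.10 (adjusted p = 0.0168).

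The 5 other called probe sets had no symbol in the annotation used. The strongest call of all was among them: 1381127_at read 149.1 and 170.6 units in whole prostate controls against 29.3 and 23.4 in the vinclozolin lineage, and 585.6 and 615.6 against 128.7 and 113.9 in epithelium. Its effect was -2.10 ± 0.11 (adjusted p = 0.0014), and it was the 1 probe set of the 17 also called in epithelium alone (adjusted p = 0.0287). Another, 1389812_at, was higher by 1.64 ± 0.20 (adjusted p = 0.0458), from a level of 8.8 and 1.5 units in epithelium controls that is below the added constant. With 1 unit added in its place the effect of 1389812_at was 2.68 (adjusted p = 0.224). The remaining 3, 1393108_at, 1372120_at and 1376742_at, had effects of -1.16, -1.12 and -1.06 (adjusted p = 0.0187, 0.0242 and 0.0287).

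The RefSeq promoter table of build GRCr8 held 8 of the 12 named genes, and the 250 bases before the start of each were searched on both strands for the androgen and glucocorticoid receptor half-site AGAACA, the full palindrome of that half-site and its reverse complement 3 bases apart, the Sp1 box GGGCGG, the CCAAT box and the TATA box TATAAA. The 4 shown are those of Gna14, which rose, and of Rasd1, Arrdc2 and Setd1b, which fell, chosen to show a promoter of each direction and each kind of match found. Capitals mark a match on either strand, and no matches overlapped. The sequences run 5′ to 3′ on the strand of the gene: Gna14 at chr1:223141552-223141801 (plus), Rasd1 at chr10:45267683-45267932 (minus), Arrdc2 at chr16:18635633-18635882 (plus) and Setd1b at chr12:39081872-39082121 (minus).
Gna14: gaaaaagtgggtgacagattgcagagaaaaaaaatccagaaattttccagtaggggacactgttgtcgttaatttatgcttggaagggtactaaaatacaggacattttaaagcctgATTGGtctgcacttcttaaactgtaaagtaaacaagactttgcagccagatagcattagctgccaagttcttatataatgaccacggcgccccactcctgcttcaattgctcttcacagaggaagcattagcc
Rasd1: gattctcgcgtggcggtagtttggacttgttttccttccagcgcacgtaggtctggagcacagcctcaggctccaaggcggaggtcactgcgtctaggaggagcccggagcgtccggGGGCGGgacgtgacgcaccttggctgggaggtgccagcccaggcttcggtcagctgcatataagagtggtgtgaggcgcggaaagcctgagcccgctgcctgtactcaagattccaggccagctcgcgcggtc
Arrdc2: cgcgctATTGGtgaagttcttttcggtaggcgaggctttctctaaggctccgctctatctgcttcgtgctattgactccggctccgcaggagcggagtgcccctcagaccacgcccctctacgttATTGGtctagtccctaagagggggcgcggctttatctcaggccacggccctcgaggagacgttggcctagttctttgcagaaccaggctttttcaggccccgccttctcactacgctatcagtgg
Setd1b: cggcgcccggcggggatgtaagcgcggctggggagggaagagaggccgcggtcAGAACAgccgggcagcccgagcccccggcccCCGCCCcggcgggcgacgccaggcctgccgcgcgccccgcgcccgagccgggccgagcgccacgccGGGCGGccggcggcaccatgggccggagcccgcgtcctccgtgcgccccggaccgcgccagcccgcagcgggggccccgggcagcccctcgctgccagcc

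The half-site AGAACA was in 1 of the 8 promoters, that of Setd1b at position -197 from the start, against 17.5% of all 33469 promoters of the table cut to the same length. The full palindrome was in 0 of the 8 and in 0.012% of all. GGGCGG was in 3 of the 8 (Rasd1, Plekhh1 and Setd1b; 30.5% of all), a CCAAT box in 4 (Plekhh1, Vwc2, Arrdc2 and Gna14; 34% of all) and TATAAA in 0 (12.9% of all). A match of these letters is a description of the window.

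The threshold passed through genes of similar effect. Just inside it lay Pdzk1ip1 (adjusted p = 0.0481) and 1389812_at (0.0458), and just outside it Card14 (-1.47 ± 0.18, adjusted p = 0.0531) and Ptn (-0.74 ± 0.09, adjusted p = 0.0569). Card14, a scaffold protein of NF-kappa-B signalling in epithelia, had log2 levels of 6.81 and 6.56 in whole prostate controls, 5.77 and 5.31 in the vinclozolin lineage, 7.16 and 7.55 in epithelium controls and 5.48 and 5.65 in vinclozolin epithelium. Its groups did not overlap in either preparation. Other genes with a positive effect were also of like size and did not pass: Dnajc10, a disulfide reductase of the endoplasmic reticulum (0.67, adjusted p = 0.0598), Stat2, a transcription factor of interferon signalling (0.77, adjusted p = 0.0642), and Pla2g2d, a secreted phospholipase (0.94, adjusted p = 0.0717). When both preparations were required to differ, taking the larger of the 2 p-values of probe sets with the same sign, the lowest adjusted p was 0.080 and 0 were called by limma, with 491 probe sets (239 higher and 252 lower) under an unadjusted p of 0.05 in both.

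Genes carried by 1 preparation were absent from the calls of the additive fit, so the mean of the 2 effects was taken from a fit with a mean for each group, in which unequal effects do not add to the spread. There, 174 probe sets (0.801%) were called, 80 higher (0.368%) and 94 lower (0.433%), and they include all 17 of the additive fit. Of the 174, 62 were of like size (32 higher and 30 lower), 93 had the same sign with unequal effects (35 higher and 58 lower), and 19 had opposite signs (13 with a positive and 6 with a negative mean). Of the 112 unequal or opposite ones, 104 had the larger effect in whole prostate and 8 in epithelium. Over all probe sets tested the median size of the effect was 0.209 in whole prostate and 0.168 in epithelium. Of the 174, 143 were also called for the whole prostate effect of the same fit. With any 1 array left out the count was 9 to 51.

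**Figure D2:**
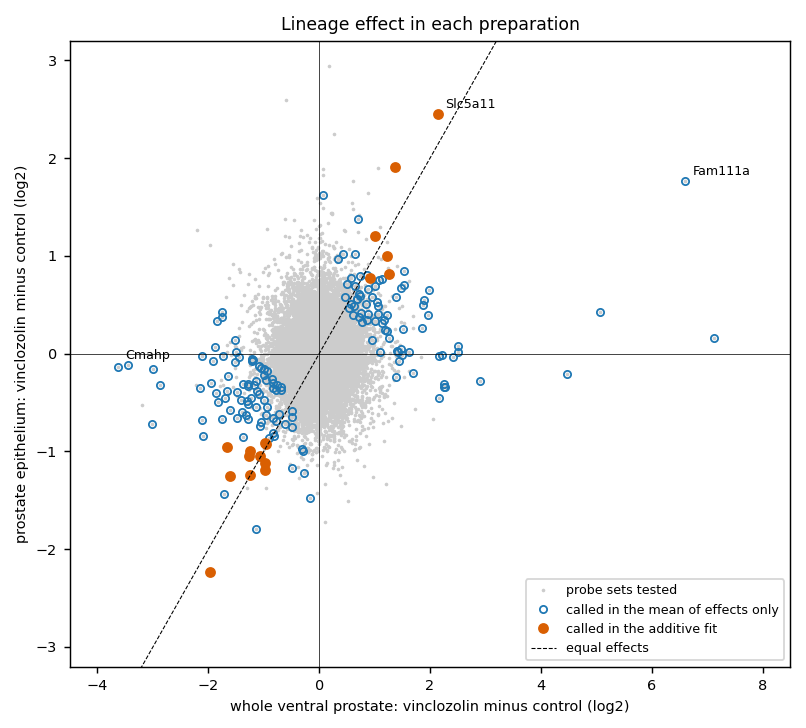
Effect of the lineage in epithelium (vertical axis) against that in whole prostate (horizontal axis), both as vinclozolin minus control in log2, for every probe set tested (grey). Filled points are the 17 called in the additive fit, open circles those called for the mean of effects alone, and the dashed line marks equal effects; the axes differ in scale. The filled points lie along the dashed line, and many open circles lie far out along the horizontal axis with little effect in epithelium, Fam111a at 6.61 and 1.77 and Cmahp at -3.62 and -0.13 among them.

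Fam111a, a serine protease that works with the replication machinery and restricts viruses, had the largest effect in whole prostate of the called genes with a symbol. Its log2 level was 5.01 and 5.32 in whole prostate controls and 11.68 and 11.86 in the vinclozolin lineage, and 10.62 and 10.83 against 12.48 and 12.51 in epithelium. Whole prostate controls were low and all other arrays high. The effect was 6.61 in whole prostate and 1.77 in epithelium (adjusted p = 2.48e-05 and 0.0626), and the mean was called (adjusted p = 5.12e-05). In the additive fit the same values gave 4.19 ± 0.86 and an adjusted p of 0.148.

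Ocm, Ldoc1 and RT1-Ba rose in whole prostate with a negative, uncalled effect in epithelium (adjusted p in whole prostate from 0.00144 to 0.00461). Ocm, the calcium-binding protein oncomodulin, had log2 levels of 7.88 and 7.88 against 10.10 and 9.997 in whole prostate and of 8.44 and 8.39 against 7.86 and 8.06 in epithelium, effects of 2.17 and -0.45. Ldoc1, a gene derived from a retrotransposon, had effects of 2.24 and -0.31. RT1-Ba, the alpha chain of a class II histocompatibility antigen, had effects of 2.25 and -0.34 on probe set 1377334_at, and its 3 other probe sets gave additive effects of -0.53, -0.07 and 0.06. RT1-Bb, the beta chain of that antigen, had probe sets that disagree: 1371033_at had effects of -3.02 and -0.72, and 1371065_at of 1.21 and -0.24.

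Cmahp, a hydroxylase that modifies sialic acid precursors, had log2 levels of 11.95 and 11.97 in whole prostate controls, 8.404 and 8.27 in the vinclozolin lineage, and between 11.97 and 12.14 on the 4 epithelium arrays. The whole prostate arrays of the vinclozolin lineage were thus the 2 low ones of 8. Its effects were -3.62 and -0.13, and a second probe set gave -3.46 and -0.11. Myl1, a myosin light chain of fast skeletal muscle, had effects of -2.87 and -0.32, and Gstm6l, which is like the mu-class glutathione transferases, of -1.76 and 0.42. The sum of the 21 skeletal muscle markers was 3888 and 4065 units in whole prostate controls against 1831 and 1911 in the vinclozolin lineage, and 8546 and 8563 against 7381 and 7402 in epithelium, lower in the vinclozolin lineage in both. In epithelium controls Acta1 alone read 4457.9 and 4820.4 units and Tnnc2 692.9 and 660.2, while Myl1 read 25.4 and 19.7 and Tnnt3 3.8 and 1.8. The sum there thus rests largely on Acta1, and Myl1 had little room to fall. The part of these markers in the Myl1 result was not tested.

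**Figure D3:**
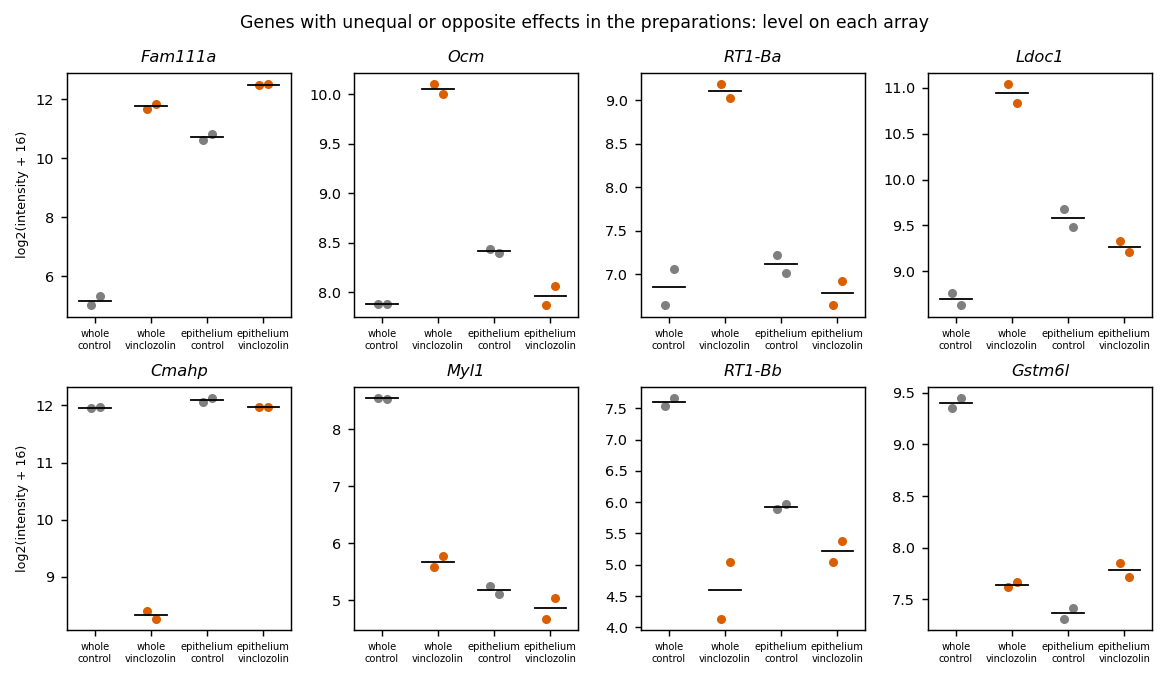
Level on each of the 8 arrays of the 8 genes taken by rule for unequal or opposite effects (1 probe set per gene, and 4 genes in each direction of the mean effect), as log2(intensity + 16) after quantile normalisation. Every point is 1 array and each bar the mean of 2. For Cmahp the 2 whole prostate arrays of the vinclozolin lineage stand below the other 6, and for Fam111a the 2 whole prostate controls do.

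Genes of androgen action were measured as 25 genes of an androgen-responsive list and 13 secretory proteins of the ventral prostate. Of the androgen-responsive genes, 1 was called, Clu, which androgen represses. At an unadjusted p under 0.05 in limma, 4 of the 25 (16%) were higher, Clu among them, and 2 (8%) lower, Eaf2 and Azgp1. For all genes these shares were 7.02% and 7.22%. Clu, Eaf2 and Azgp1 are named as the members of lowest p, and the other higher ones are not named. Of the 25, 10 were positive in both preparations and 7 negative in both, against 26.8% and 27.7% of all 11485 genes measured by their brightest probe set. Their median effect was -0.04, and that of all genes -0.0017. Eaf2, an elongation factor partner induced by androgen in the prostate, had log2 levels of 12.66 and 12.65 against 11.35 and 11.38 in whole prostate and 10.99 and 11.10 against 10.40 and 10.36 in epithelium. Every vinclozolin array was below its controls, the additive effect of -0.98 ± 0.14 did not pass (adjusted p = 0.0717), and the mean of effects did (adjusted p = 0.00556). Azgp1, a secreted zinc-binding glycoprotein, had an additive effect of -1.47 (adjusted p = 0.112), with -2.10 in whole prostate and -0.84 in epithelium, and a called mean (adjusted p = 0.00556). Of the secretory proteins limma called 0, with 2 higher and 1 lower at an unadjusted p under 0.05, and the median was 0.02. The higher ones were Cst6 at 0.30 and Pigr at 0.27, and the lower one was Azgp1. Pbsn, probasin, gave -0.04 and Msmb, a seminal protein, -0.42, from -1.55 in whole prostate and 0.70 in epithelium. Of the 15 genes of steroid receptors and metabolism limma called 0, with 2 lower at an unadjusted p under 0.05. Hsd17b6, which converts an androgen metabolite, had effects of -0.28 and -1.22 and a called mean (adjusted p = 0.0185), the reverse of the usual order of the preparations.

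Across the 37 gene lists, 788 of the 999 genes listed were measured. In the additive fit 2 of them were called, Clu and Slc5a11, the latter from a list of polyamine and transport genes. Among all 11485 genes 5 were called higher and 6 lower. Because members and lists were chosen with earlier results of these data known, the count of 2 cannot be read against that background. The same limit holds for the shares and medians of every list, in this and the other paragraphs, which are description only. Lists were compared by counts and medians, with no test, and for all genes 7.02% were higher and 7.22% lower at an unadjusted p under 0.05. Of the 31 interferon response genes 0 passed, 21 (67.7%) were positive in both preparations and 0 negative in both. At an unadjusted p under 0.05, 19 of them were higher and 0 lower. Their median effect was 0.84 in whole prostate and 0.11 in epithelium. Ifit2, an interferon-induced RNA-binding protein, had the opposite order, 0.33 and 0.96, and Ifi27l2b 1.88 and 0.50. The probe sets of Mx2, another interferon-induced gene, disagreed. The brighter one, 1387283_at, had effects of 1.13 and 0.31, and 1369202_at had effects of -3.01 and -0.15. Antigen presentation genes had medians of 0.68 and -0.13 in the same order, and macrophage and lymphocyte markers of 0.61 and -0.15 and of 0.62 and -0.02, so these lists had the same order of medians as the interferon genes, and their part in that list was not tested.

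Folding enzymes and chaperones of the endoplasmic reticulum, where secretory proteins mature, were positive in both preparations in 24 of 37 genes (64.9%) and negative in both in 2, with similar medians of 0.16 and 0.11. None of the 37 was called by limma, and 9 were higher and 1 lower at an unadjusted p under 0.05. Sel1l, of the degradation pathway for misfolded proteins, had an effect of 0.54 with 0.59 and 0.50 (adjusted p = 0.112), and the disulfide isomerase Pdia5 went against the list with -1.40 (adjusted p = 0.148). Of 40 cell cycle genes limma called 0, with 9 higher and 3 lower at an unadjusted p under 0.05, and 22 (55%) were positive in both preparations, with medians of 0.17 and 0.16. Ccne2, a cyclin of the entry into S phase, gave 0.65, with a second probe set at -0.04, and Mcm2, of the replicative helicase, gave -0.43. Mki67, a proliferation marker, gave 0.28 (adjusted p = 0.485).

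Immediate early genes, which respond to stimuli within minutes, were negative in both preparations in 17 of 35 genes (48.6%), with medians of -0.04 and -0.14, and 13 were lower and 4 higher at an unadjusted p under 0.05. None of the 35 was called. Fosb gave -0.55 and Gadd45b -0.64. Of the 18 circadian clock genes 8 (44.4%) were negative in both and 0 positive in both, with 0 called by limma and 3 lower at an unadjusted p under 0.05. Csnk1e, a kinase of the clock proteins, was nearly equal in the preparations at -0.53 and -0.52 (adjusted p = 0.169), while its other probe sets gave 0.25 and 0.04 in the additive fit. Growth factors and receptors were negative in both in 16 of 37 genes (43.2%), with 0 called by limma and 2 higher and 3 lower at an unadjusted p under 0.05. Among them was Fst, the activin antagonist follistatin, at -0.84 (adjusted p = 0.132) with a second probe set at -0.34.

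**Figure D4:**
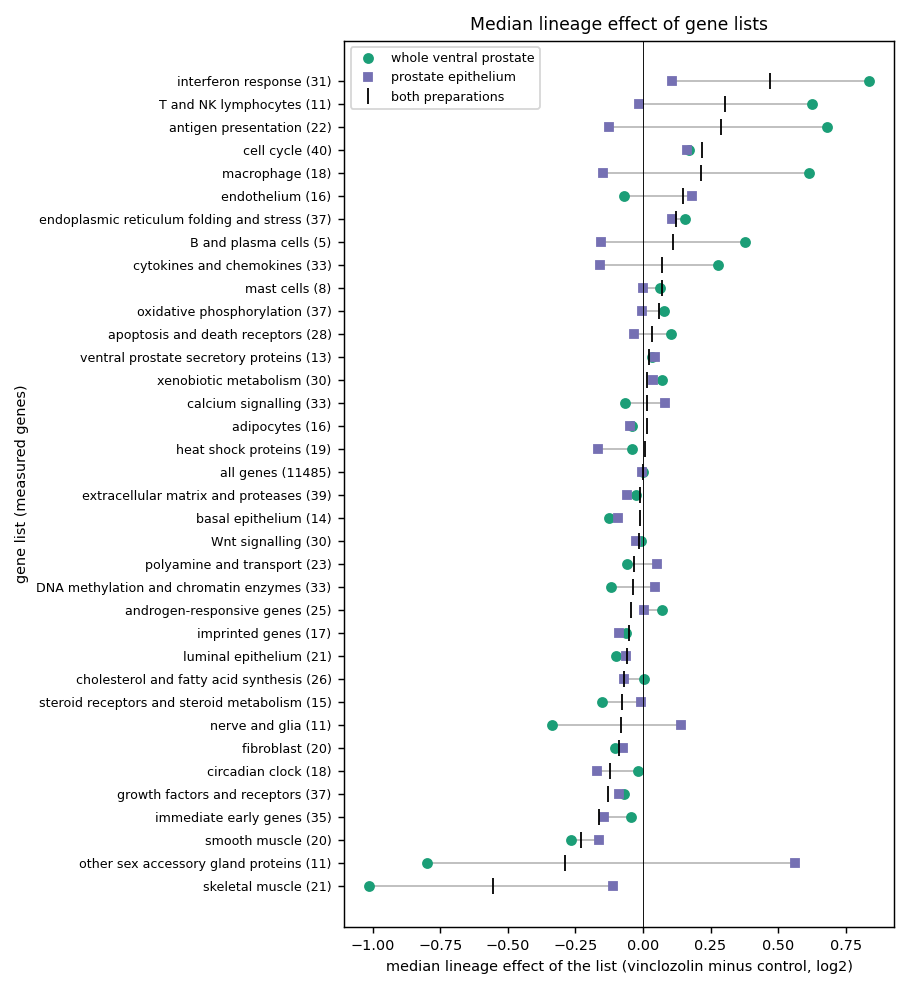
Median effect of each gene list in whole prostate and in epithelium, as vinclozolin minus control in log2. Circles and squares are medians over the measured genes of a list, whose number stands in brackets, and ticks the median of the additive effect. Interferon response and skeletal muscle lie far from 0 in whole prostate and near it in epithelium, while endoplasmic reticulum folding and cell cycle have similar positive medians in both.

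In the additive fit limma called 0 of the cell type markers. Of the 20 smooth muscle genes 12 (60%) were negative in both preparations and 2 positive in both, with medians of -0.27 and -0.16, and 9 were lower at an unadjusted p under 0.05. Lmod1, an actin nucleator of smooth muscle, gave -0.54 and -0.47 (adjusted p = 0.176), while Acta2 gave 0.10. The summed intensity of the list was 15890 and 16240 units in whole prostate controls against 14510 and 13570, and 35810 and 37800 against 33520 and 33860 in epithelium, lower in the vinclozolin lineage in both. Skeletal muscle markers were negative in both in 13 of 21 genes (61.9%), with medians of -1.01 and -0.11. Luminal markers were negative in both in 11 of 21 genes, by little, with medians of -0.10 and -0.06. Their summed intensity was 42260 and 41910 units against 40300 and 41190 in whole prostate and 43990 and 45010 against 45580 and 45000 in epithelium. Of the 14 basal markers 2 were positive in both and 4 negative in both, with medians of -0.13 and -0.09. Sfn, an epithelial adaptor protein, gave 0.66 (adjusted p = 0.0842) and Krt5 0.35, against most of the list. The 11 proteins of other sex accessory glands had medians of opposite sign, -0.80 and 0.56.

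Of the remaining lists, enzymes of DNA methylation and chromatin had 0 of 33 called (1 higher and 5 lower at an unadjusted p under 0.05), 6 genes positive in both preparations and 12 negative in both, and Dnmt1 and Dnmt3a, the maintenance and a de novo DNA methyltransferase, gave -0.16 and 0.30, with a second Dnmt3a probe set at 0.01. Apoptosis and death receptors had 1 of 28 called, Clu, which the androgen-responsive list also holds, and Fas, the death receptor, gave -0.55 with -0.51 and -0.58 in the preparations (adjusted p = 0.154), while a second probe set gave -0.04 (adjusted p = 0.947). Xenobiotic metabolism had 0 of 30 called (3 higher and 2 lower unadjusted). In it Cyp1a1, the dioxin-inducible oxidase, gave 0.11 in whole prostate and -1.72 in epithelium (limma, adjusted p = 0.824 and 0.106). Its whole prostate log2 levels were 4.10 and 4.14 in controls and 4.33 and 4.12 in the vinclozolin lineage. These lay near the lowest level that the added constant allows, so a fall of Cyp1a1 could not be seen there. Of the imprinted genes Igf2, a fetal growth factor, gave 0.51 and 0.30 and H19 -1.47 and -0.08, with 0 of 17 called (3 higher and 3 lower unadjusted). Oxidative phosphorylation had 0 of 37 called (1 higher unadjusted) and a median of 0.06. Of the 35 lists with at least 5 measured genes, 6 had positive medians in both preparations, 14 negative medians in both and 15 medians of opposite sign.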

How the data were processed

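The deposited values were probe set intensities on a linear scale, one column per array, in the authors' table; the arrays' common trimmed mean (2% cut at each end) shows a scaling that the authors made. The software that made them: not given in the sources used here. Biotin labelling followed standard procedures, per the labels' protocols. Depth has no meaning for arrays, and 2 arrays per group limit the precision.

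The 57 control probe sets were left out, 16 was added, log2 was taken, arrays were quantile normalised, and the filter on low values dropped those whose mean lay below the 30th percentile, leaving 21729. Genes were named from the 20826 probe sets with 1 symbol in the platform annotation, of which 20758 were found in the RefSeq table of GRCr8. limma 3.58.1 in R 4.3.3 (lmFit, eBayes) fitted preparation plus lineage, and group means for effects within a preparation, their difference and their mean. Benjamini-Hochberg adjustment ran over all probe sets tested, with calls at 0.05. Scripts were tested on simulated data. Python 3.11.15 searched the promoters.

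Genes were named by rule: called genes of like size (one probe set per gene), lowest p otherwise, up to 3 per list, and a fixed set including Clu, Fas, Msmb and Pbsn. The rule's genes driven by 1 preparation had 0 calls in the additive fit, so the same order was applied to the mean of effects after seeing this. Members and lists were chosen with earlier results of these data known. A list takes the brightest probe set of each gene. The values showed no pairing by replicate number (correlation of deviations 0.0028 in whole prostate and 0.0294 in epithelium). That cannot settle whether samples of the same number were handled together, which the labels do not say. Alternatives were other scaling, added constants, filters, priors, array weights, replicate block and single arrays left out.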

Additional observations from a re-analysis of the deposited data

Results flagged for a closer look

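Each result here has an effect of the lineage that differed between the preparations by a test of the difference itself (limma, group means fit, adjusted over 21729 probe sets). Values are the effect in epithelium minus that in whole prostate, in log2. With 2 arrays per group, no test for a stray array was run.

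These genes had the more positive effect in whole prostate and opposite or weaker effects in epithelium: Fam111a at -4.841 (adjusted p = 0.000939), Ocm at -2.621 (0.00543), RT1-Ba at -2.593 (0.0228) and Ldoc1 at -2.554 (0.00977). Mcpt1l1, a mast cell protease, was at -2.237 (0.0177), from 2.22 in whole prostate and -0.02 in epithelium. Uchl1, a ubiquitin hydrolase of neurons, was at -1.333 (0.0491), from 1.98 and 0.65.

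The negative effect was the larger one in whole prostate for Cmahp, at 3.491 (adjusted p = 0.000939), Myl1 at 2.549 (0.0138), Gstm6l at 2.18 (0.00977), Fmo5, a flavin monooxygenase, at 1.799 (0.0203), and Tnnc2, a troponin of fast muscle, at 1.644 (0.0177). Myl1 read 377.9 and 372.3 units in whole prostate controls and 25.4 and 19.7 in epithelium controls. It had little room to fall in epithelium, which limits the reading of its difference. Msmb was at 2.248 (0.00784): its log2 levels were 12.70 and 12.64 in whole prostate controls against 11.10 and 11.15 in the vinclozolin lineage, and 11.38 and 11.45 against 12.04 and 12.19 in epithelium.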

How the results depend on the processing

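Counts are given in the order additive fit, like size among its calls, whole prostate, epithelium and difference of effects, which were 17, 17, 379, 2 and 63. They were 4, 4, 235, 0 and 40 with 1 unit added in place of 16, and 35, 33, 651, 19 and 133 with 32 units. They were 11, 11, 200, 0 and 32 with no filter on low values, and 53, 52, 965, 23 and 169 with a filter at the 50th percentile. The trended and robust prior gave 416, 263, 1814, 205 and 540. Array weights gave 32, 32, 871, 0 and 65. Replicate number as a block within preparation gave 0, 0, 32, 0 and 5, and 6 in place of 174 for the mean of effects. Median centring gave 18, 18, 493, 1 and 72, and values as deposited 16, 16, 490, 2 and 83. The cause of these shifts was not tested.

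With 1 array left out the counts ranged from 2 to 4, 2 to 4, 24 to 225, 0 to 0 and 5 to 19, and from 9 to 51 for the mean of effects; fewer samples entered these fits. The additive count was 2 without whole prostate control 1, 2 without whole prostate control 2, 3 without whole prostate vinclozolin 1, 2 without whole prostate vinclozolin 2, 4 without epithelium control 1 or 2 and 2 without epithelium vinclozolin 1 or 2. Taking the mean of effects gave 174 and the larger p-value 0 in place of the additive 17. From the 4 arrays of a preparation alone, 65 were called in whole prostate and 0 in epithelium.

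Of the 17, Pdzk1ip1 (adjusted p = 0.0583) and Setd1b (0.0581) did not pass with median centring, nor with values as deposited (0.0517 and 0.0601), and 15 of the 17 had like size at a ratio of 0.67. Acta2 and Pbsn, far from the threshold, changed sign with an array left out: Acta2 ranged from -0.0296 (without whole prostate control 1) to 0.1995, and Pbsn from -0.1163 to 0.0254 (without whole prostate control 2), with 0.0214 without whole prostate vinclozolin 2. No called gene changed sign in any setting. Medians of 7 of the 37 lists moved with median centring, of 5 with the probe set of lowest p and of 2 with values as deposited.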

Other observations

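The mean of effects, fitted by limma as above, added 45 probe sets of like size to the 17, of which 26 were higher and 19 lower. The genes named here were chosen after their values were seen. Trak2, an adaptor for the transport of mitochondria, had log2 levels of 6.66 and 6.66 in whole prostate controls against 7.43 and 7.30 in the vinclozolin lineage, and 7.74 and 7.93 against 9.22 and 9.21 in epithelium. Its mean effect was 1.04 ± 0.08 (limma, adjusted p = 0.00666), larger in epithelium than in whole prostate, and a second probe set gave 0.25. Fut2, the fucosyltransferase of secretor status, had effects of 1.54 and 0.84, with a second probe set at 1.01 and -0.24. Pck2, the mitochondrial form of a gluconeogenic enzyme, rose by 1.05 and 0.53, with its second probe set at 0.57 and 0.47.

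Of amino acid carriers, Slc3a1, a subunit of the cystine transporter, had effects of 0.86 and 0.80, and Slc36a1, a proton-coupled carrier, of 0.73 and 0.80. Among the genes that fell, Ptn, the heparin-binding growth factor pleiotrophin, had log2 levels of 10.24 and 10.21 against 9.48 and 9.30 in whole prostate and 10.02 and 10.10 against 9.33 and 9.47 in epithelium, a mean effect of -0.74 ± 0.09 (limma, adjusted p = 0.0228). Cdcp1, a membrane protein with CUB domains, had effects of -1.07 and -0.74, and its second probe set -0.39 and -0.34.

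Besides Fam111a, other probe sets called for the mean of effects were low on the 2 whole prostate controls and high on the other 6 arrays. The unnamed 1379497_at had log2 levels of 6.197 and 6.215 in whole prostate controls against 13.29 and 13.37 in the vinclozolin lineage, and of 12.58 and 12.58 against 12.78 and 12.70 in epithelium, effects of 7.12 and 0.16. The unnamed 1398411_at had effects of 5.07 and 0.43. For Cyssl2 the probe set 1381398_at had effects of 4.47 and -0.21, and the second one, 1390275_at, of 0.79 and 0.07.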
